A study of Rattus norvegicus with 6 samples.

Results

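*N4bp3* and 9 genes of the NEDD4 ubiquitin ligase network were followed in the corneal epithelium of diabetic and normal rats. NEDD4 ligases are HECT-type E3 enzymes. They take ubiquitin from an E2 enzyme onto a cysteine of their own and pass it to a substrate, which they hold through WW domains that bind short proline-rich PY motifs. Adaptors with PY motifs, such as NDFIP1 and NDFIP2, bring the ligases to membranes and to substrates that lack a motif. In epithelia the best known substrate is the epithelial sodium channel, which NEDD4L removes from the cell surface. The NEDD4 binding proteins were named for binding this ligase and are otherwise unlike each other.

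The set was given by gene name: the ligases *Nedd4*, *Nedd4l*, *Itch*, *Wwp1* and *Wwp2*, the adaptors *Ndfip1* and *Ndfip2*, and the binding proteins *N4bp1*, *N4bp2* and *N4bp3*. Each gene was represented by its protein-coding locus with the highest mean FPKM (fragments per kilobase of transcript, scaled to the depth of the library), and all 10 were found among the 61453 loci of the table. *N4bp3* entered the set because of its own difference between diabetic and normal rats, so that difference is described here and not tested.

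The diabetic group was male Brown Norway rats given a single intraperitoneal injection of streptozotocin (STZ) at 50 mg/kg. STZ destroys the insulin-producing beta cells, and rats with blood glucose above 16.67 mmol/l were taken as diabetic. The normal group was male rats of the same strain given citrate buffer. Corneal epithelium was scraped off 16 weeks after diabetes was induced, and its RNA was sequenced in 3 libraries per group. There were 3 rats per group, numbered 1 to 3 in the labels, and the methods give 6 corneas per group. A library may therefore be 1 rat, but this is not stated, so p-values measure the spread between these libraries, which may be technical. STZ models loss of insulin and not type 2 diabetes, and a scraped sheet can carry cells that lie under or beside the epithelium.

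Total counts were 62288901 to 87040253 in the diabetic libraries and 76500184 to 81139312 in the normal libraries. A count of 0 in a library allows up to 3 counts, a level of 0.0345 to 0.0482 CPM (counts scaled to a common library total), and this limit covers counting error only. The defining keratin of the corneal epithelium, *Krt12*, averaged 4119 FPKM in diabetic and 3949 FPKM in normal libraries, and the 4 blood markers summed to 1.68 to 3.66 FPKM in diabetic and 2.11 to 3.85 FPKM in normal libraries, with *Hbb* at 0 counts throughout. The 5 keratocyte markers found summed to 709 to 796 FPKM in diabetic and 803 to 1029 FPKM in normal libraries, and the 5 leukocyte markers to 25.6 to 29.2 FPKM in diabetic and 20.1 to 23.8 FPKM in normal libraries, so both sums differed without overlap. Of the keratocyte markers found, only *Lum* was lower without overlap, and *Kera*, *Dcn*, *Col1a1* and *Col5a1* overlapped between the groups. The leukocyte list did not move as one. *Cd14* averaged 8.30 FPKM in diabetic and 3.32 FPKM in normal libraries, and *Cd68* 18.6 FPKM in diabetic and 17.3 FPKM in normal libraries. *Csf1r* averaged 0.608 FPKM in diabetic and 0.850 FPKM in normal libraries, *Ptprc* 0.164 FPKM in diabetic and 0.330 FPKM in normal libraries, and *Cd3e* had 0 counts in 5 libraries. The 8 lens markers summed to 8.59 to 1281 FPKM in diabetic and 115.3 to 371 FPKM in normal libraries. The part of these cells in the results below was not tested, and in bulk RNA fewer cells of a type and less RNA per cell cannot be told apart.

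*N4bp3* encodes a NEDD4-binding coiled-coil protein that has been studied in neurons, where it lies on vesicles and takes part in the branching of axons and dendrites. Its locus is on the minus strand of rat chromosome 10 at chr10:37089940-37099678 (build rn6). It had 0, 0 and 0 counts in the diabetic libraries, against 3164, 2936 and 2512 counts in the normal libraries. The normal libraries held it at 7.78, 7.46 and 5.97 FPKM, a mean of 7.07 ± 0.968 (SD, n = 3). By FPKM in normal libraries *N4bp3* therefore stood near *Wwp1*, in the lower part of the set. In CPM it stood above *Wwp1* there, at 31.0 to 40.1 against 20.4 to 25.2 CPM. All diabetic libraries were empty at this locus.

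The table holds a second locus whose description is also Nedd4 binding protein 3. *LOC103689949* is a protein-coding row on the same strand of the same chromosome, at chr10:34997008-35005992 (rn6), outside the 100 kb that were searched around *N4bp3*. It was chosen by its description after the values were seen. It had 5076, 3195 and 3503 counts in the diabetic libraries, against 4110, 3612 and 3329 counts in the normal libraries. A locus with this description was thus counted in every diabetic library, under another name. In FPKM this locus had 5.86, 5.13 and 5.44 in diabetic and 5.21, 4.72 and 4.07 in normal libraries, and the groups overlapped. Its log2 fold change was 0.21 ± 0.12 (SE, 95% interval -0.07 to 0.50), with an adjusted p of 0.953 by limma and 0.991 by edgeR.

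The result for the description Nedd4 binding protein 3 turned on which locus was read. *LOC103689949* alone stood in diabetic libraries at 117% of its mean CPM in normal libraries, whereas *N4bp3* alone stood at 0%. Summed over both loci, the level was 58.3, 51.3 and 54.5 CPM in diabetic and 92.1, 85.6 and 72.0 CPM in normal libraries, so that diabetic libraries held 65.7% of the normal mean. Where *N4bp3* had counts it had 75.5 to 81.3% of those of *LOC103689949* in the same library. In FPKM *N4bp3* stood higher there. CPM divided by FPKM, a ratio that grows with the length used, was 5.16 for *N4bp3* and 10 for *LOC103689949*. The ratio is not a length in kilobases, since the *LOC103689949* locus spans 8985 bp. If a read can count at both loci, the sum counts it more than once. The labels and methods do not say how reads that match more than 1 locus were assigned, and the likeness of the rn6 sequences was not tested, so the *N4bp3* values are uncertain as a measure of the gene.

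**Figure D1:**
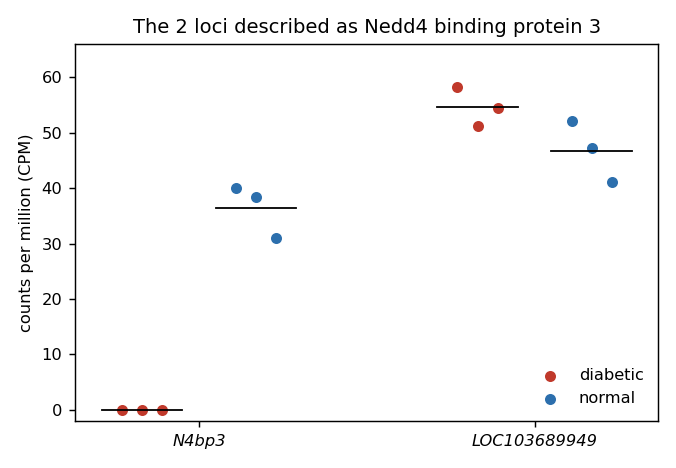
CPM (vertical axis) of the 2 loci described as Nedd4 binding protein 3, with 1 point per library, the diabetic group left of the normal group and a bar at each mean of 3 libraries. At *N4bp3* the diabetic libraries are at 0 CPM and the normal libraries at 31.0 to 40.1 CPM, whereas at *LOC103689949* they lie at 51.3 to 58.3 and 41.0 to 52.0 CPM.

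The neighbours of *N4bp3* came in pairs as well. On either side of it, 6 other loci had a counterpart with the same product near *LOC103689949*, in the same order, which makes 7 pairs. In each pair the member near *N4bp3* is called the near locus here. In the GRCr8 assembly of RefSeq the names *Col23a1*, *Phykpl*, *Hnrnpab*, *Nhp2*, *Rmnd5b*, *N4bp3*, *Trappc2b* and *Sec24a* follow each other once each, and the 6 LOC symbols of these pairs are not listed.

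In 5 of the 7 pairs the near locus had 0 counts, or under 10, in at least 1 library, while its counterpart was counted in all 6. *Phykpl*, an enzyme that breaks down phosphohydroxylysine, had 0, 0 and 0 counts in diabetic and 0, 946 and 1242 counts in normal libraries at its near locus. Its counterpart *LOC103690164* had 1735, 938 and 1090 counts in diabetic and 1432, 1301 and 1578 counts in normal libraries. *Phykpl* was therefore empty in the diabetic libraries too, but also in 1 normal library.

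The other empty loci did not follow the groups. *LOC103689931*, the near counterpart of the RNA-binding protein gene *Hnrnpab*, had 8681, 0 and 5288 counts in diabetic and 6, 6657 and 8250 counts in normal libraries. *LOC103690013*, paired with the ribonucleoprotein gene *Nhp2*, had 259, 231 and 0 counts in diabetic and 312, 0 and 224 counts in normal libraries. *LOC103689927*, paired with *Rmnd5b*, had 0, 917 and 1171 counts in diabetic and 1258, 0 and 0 counts in normal libraries. Libraries of both groups were thus empty or nearly so at each of these 3 loci, and no library was empty at all 5.

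Where a near locus was counted, its share of the counterpart's counts was narrow: 72.7 to 78.7% for *Phykpl*, 90.5 to 104% for the *Hnrnpab* pair, 74.8 to 77.8% for the *Nhp2* pair and 98.5 to 104% for the *Rmnd5b* pair. The locus next to *N4bp3*, *Trappc2b*, was counted in all 6 libraries at 54.8 to 60.6% of its counterpart. The *Col23a1* pair ranged more widely, from 20.2 to 46.6%. In all 5 pairs the counterpart's level overlapped between the libraries where the near locus was empty and the others. *Hnrnpab*, for example, stood at 92.7 to 101 CPM where its near locus was empty and at 82.7 to 112 CPM elsewhere, and *Nhp2* at 4.95 to 5.76 CPM where empty and at 3.55 to 5.12 CPM elsewhere.

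**Figure D2:**
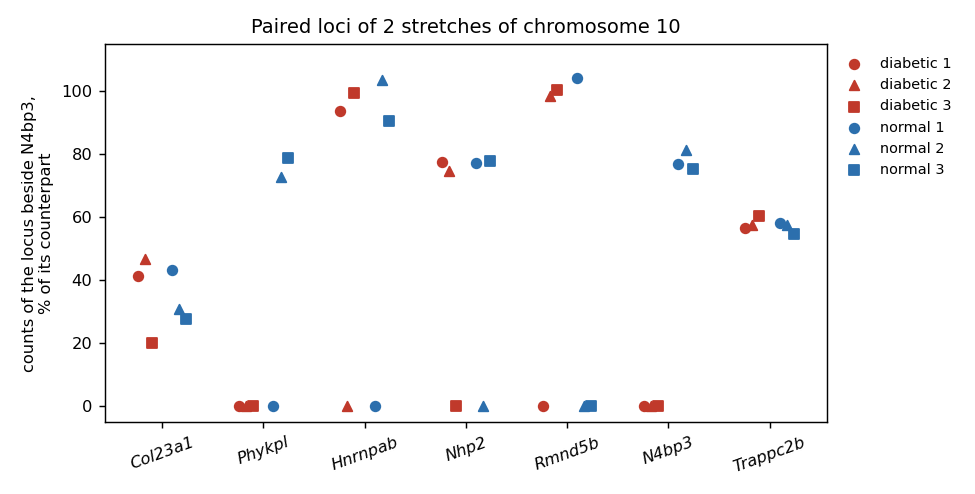
Counts of the locus near *N4bp3* as a percentage of its counterpart's counts (vertical axis) for 7 gene pairs of chromosome 10, with 1 symbol per library and diabetic libraries left of normal ones. In 5 pairs the symbols lie either at 0% or in a narrow band, and only for *N4bp3* do those at 0% divide the libraries by group.

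Within 100 kb of *N4bp3*, on both strands, the table holds 13 loci. Of these, 7 had 0 counts in at least 1 library. None of them showed the opposite pattern, with 0 counts in all normal libraries and counts in all diabetic libraries. One plus-strand row that carries the name *Sec24a* overlaps *N4bp3* and had 202, 113 and 877 counts in diabetic and 158, 183 and 198 counts in normal libraries. The larger *Sec24a* row, for a coat protein of vesicles that leave the endoplasmic reticulum, had 4267, 3097 and 3557 counts in diabetic and 3723, 3518 and 4623 counts in normal libraries. Of the 11 other loci tested in this window, 0 passed an adjusted p of 0.05 with a fold above 1.2 by limma, edgeR or DESeq2, and *Phykpl*, with an unadjusted p of 0.049, had an adjusted p of 0.953.

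Across the whole table, 8 loci had 0 counts in every library of 1 group and at least 50 in each library of the other. *N4bp3* was the only one of them annotated as protein coding. The loci whose profile over the 6 libraries was most like that of *N4bp3* were *AC095390*, fragments within *Dut* and *Pnp*, and the genes *Smagp* and *Ap1ar*, with Pearson correlations of 0.991 to 0.995. These points are 6 libraries in 2 groups with nearly 2 values for *N4bp3*, so the coefficient describes only how cleanly a locus falls into those levels.

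Apart from *N4bp3*, the set lay close together in diabetic and normal corneal epithelium. Of the other 9 genes, 0 passed the test by limma, by edgeR or by DESeq2, and without adjustment 0 reached a limma p of 0.05. Over all 42551 loci tested, 0.0259% passed by limma (0.0188% higher and 0.00705% lower), 0.0141% by edgeR and 0.233% by DESeq2, and 4.8% reached an unadjusted limma p of 0.05. The log2 fold changes of the 9 genes were positive for 6 of them (66.7%), beside 49% of all loci tested. Their median was 0.07, beside a median of -0.0049 over all loci. The adjusted p-values of the 9 genes ran from 0.953 to 0.995 by limma and from 0.991 to 0.999 by edgeR.

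**Figure D3:**
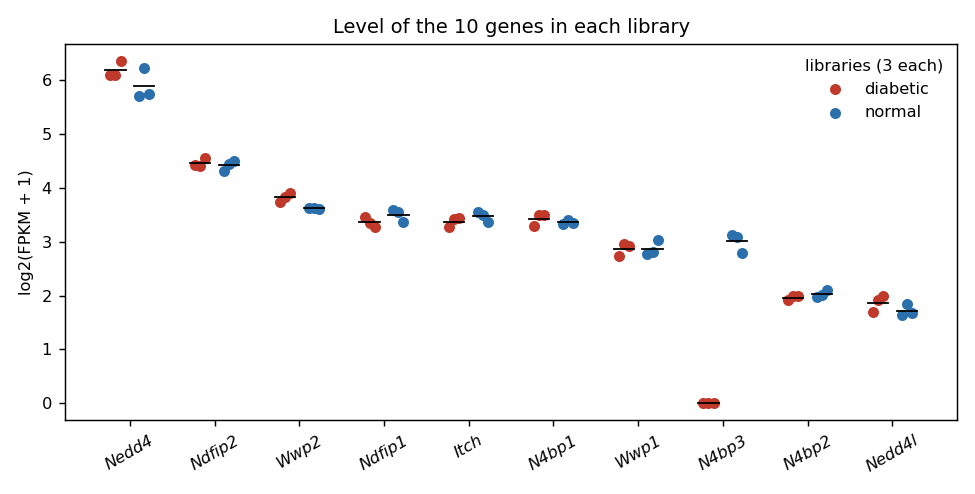
Level of the 10 genes as log2(FPKM + 1) (vertical axis), with 1 point per library, the diabetic group left of the normal group and a bar at the mean of 3 libraries, ordered by mean FPKM. *Nedd4* is highest at 51.2 to 81.0 FPKM, and *N4bp3* alone is at 0 FPKM in one group.

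By mean FPKM over the 6 libraries, which is a level per transcript length, *Nedd4* led with 65.7, followed by *Ndfip2* with 20.8 and *Wwp2* with 12.2. *Ndfip1*, *Itch* and *N4bp1* followed at 9.82, 9.75 and 9.54 FPKM and could not be ordered, because their ranges over libraries overlapped. *Wwp1* came next with 6.34 FPKM, and *N4bp2* and *Nedd4l* were lowest with 3.00 and 2.48 FPKM and overlapping ranges. *Nedd4* thus exceeded its close relative *Nedd4l* in every library. Counts without regard to length gave *Nedd4l* 65.8 to 92.7 CPM and *Nedd4* 438 to 694 CPM. They gave *N4bp2* 72.9 to 88.3 CPM and *Wwp1* 19.7 to 25.2 CPM, so the low place of *N4bp2* and *Nedd4l* held per length only. CPM divided by FPKM was 26.5 for *N4bp2* and 31.2 for *Nedd4l*, against 3.49 for *Wwp1* and 8.56 for *Nedd4*. This ratio grows with the length used but is not a length in kilobases.

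Among the ligases, *Nedd4* (chr8:79323248-79408833, plus strand), the founder of the family, had 67.6, 67.2 and 81.0 FPKM in diabetic and 51.2, 74.4 and 52.7 FPKM in normal libraries. One normal library lay among the diabetic ones, so the groups overlapped. The log2 fold change was 0.30 ± 0.18 (SE, 95% interval -0.13 to 0.72), with an adjusted p of 0.953 by limma. The interval does not exclude a rise of up to its upper bound. Single libraries moved the value: it was 0.17 without diabetic 3, 0.18 without normal 1 and 0.47 without normal 2, where the unadjusted limma p was 0.027 and the adjusted p 0.987.

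*Wwp2* (chr19:39543242-39614625, plus strand), a ligase whose gene hosts the microRNA miR-140 in an intron, had 12.4, 13.2 and 13.99 FPKM in diabetic and 11.4, 11.4 and 11.2 FPKM in normal libraries. It was the only gene of the 9 whose groups did not overlap, higher in 3 of 3 diabetic libraries, and 0 of the 9 were lower without overlap. Over all loci tested 3.94% were higher and 5.72% were lower without overlap, 9.66% in all. Its log2 fold change was 0.23 ± 0.097 (SE, 95% interval -0.00070 to 0.45). The unadjusted p was 0.0505 by limma, 0.0468 by edgeR and 0.0778 by DESeq2, and the adjusted p was 0.953 by limma and 0.991 by edgeR, so the difference did not pass.

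*Nedd4l* (chr18:60391203-60723946, plus strand) had 2.22, 2.80 and 2.97 FPKM in diabetic and 2.11, 2.60 and 2.19 FPKM in normal libraries, with a log2 fold change of 0.16 ± 0.14 (SE). *Itch* (chr3:150663920-150752421, plus strand), which in mice limits the activation of T cells and acts on JUNB and p63, had 8.63, 9.75 and 9.81 FPKM in diabetic and 10.7, 10.3 and 9.34 FPKM in normal libraries, with a log2 fold change of -0.07 ± 0.11 (SE). *Wwp1* (chr5:33609136-33664435, minus strand), a ligase that also acts on p63, had 5.68, 6.78 and 6.54 FPKM in diabetic and 5.85, 5.98 and 7.18 FPKM in normal libraries. The groups overlapped for all 3 of these ligases. For *Wwp1* the log2 fold change was 0.02 ± 0.12 (SE), and its sign turned when single libraries were left out.

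The adaptors are small membrane proteins of endosomes and the Golgi that recruit and activate NEDD4 ligases. *Ndfip1* (chr18:31574821-31625274, plus strand) had 9.96, 9.13 and 8.71 FPKM in diabetic and 11.0, 10.8 and 9.33 FPKM in normal libraries, and *Ndfip2* (chr15:89407426-89458983, plus strand) had 20.5, 20.2 and 22.5 FPKM in diabetic and 18.8, 20.8 and 21.8 FPKM in normal libraries. Both overlapped between the groups. Their log2 fold changes were -0.13 ± 0.11 and 0.07 ± 0.11 (SE), and that of *Ndfip2* changed sign when single libraries were left out. Per transcript length *Ndfip2* stood above *Ndfip1* in all 6 libraries, whereas counts without regard to length put *Ndfip1* (56.8 to 71.7 CPM) above *Ndfip2* (45.3 to 54.3 CPM) in all 6.

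The remaining binding proteins also overlapped between the groups. *N4bp1* (chr19:21218465-21266964, plus strand), known in mouse and human cells as an inhibitor of ITCH and of NF-kB signalling, had 8.83, 10.2 and 10.3 FPKM in diabetic and 9.08, 9.61 and 9.20 FPKM in normal libraries, with a log2 fold change of 0.08 ± 0.11 (SE). *N4bp2* (chr14:44026811-44092849, minus strand), a large protein with a polynucleotide kinase domain and a Smr domain, had 2.76, 2.95 and 3.00 FPKM in diabetic and 2.93, 3.02 and 3.31 FPKM in normal libraries, with a log2 fold change of -0.05 ± 0.11 (SE). Neither gene followed *N4bp3*: the 95% intervals were -0.16 to 0.33 for *N4bp1* and -0.32 to 0.21 for *N4bp2*.

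**Figure D4:**
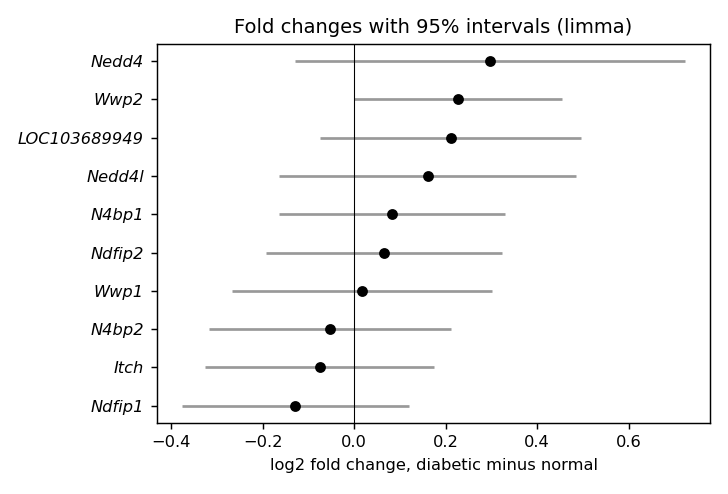
Log2 fold change, diabetic minus normal (horizontal axis), with 95% intervals from limma for 9 genes of the set and for *LOC103689949*, from 3 libraries a group. Every interval holds 0, and that of *Wwp2* reaches from -0.00070 to 0.45.

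The gene names of the set appear on 44 rows, of which 34 are fragments with no transcript type. Of the 32 fragments tested, 0 passed by limma, edgeR or DESeq2, 1 was higher and 3 were lower without overlap, and 2 had an unadjusted p under 0.05. Over all loci 3.94% were higher, 5.72% were lower and 4.8% had such a p, so these counts do not single out the fragments. A minus-strand fragment within *N4bp1* (chr19:21226369-21227967) had 257, 176 and 134 counts in diabetic and 359, 298 and 372 counts in normal libraries, with a log2 fold change of -0.46 ± 0.16 (SE) and an adjusted p of 0.953 by limma. A minus-strand fragment within *Nedd4l* (chr18:60601311-60602722) had 581, 521 and 635 counts in diabetic and 469, 422 and 526 counts in normal libraries, with a log2 fold change of 0.40 ± 0.14 (SE) and an adjusted p of 0.953 by limma. Each ran on the strand opposite to the gene that names it. The labels and methods do not say whether counting used strand, so reads of such a fragment and of its host gene cannot be told apart. Another *Nedd4l* fragment had 0 counts in all diabetic libraries and in 2 of the normal libraries, and 920 counts in the other, so an empty row also occurred without regard to group.

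Genes that work with the ligases were listed by role: other HECT ligases, adaptors and arrestin-like proteins, relatives of the binding proteins, E1 and E2 enzymes, kinases and 14-3-3 proteins that regulate NEDD4L, and substrates. Of 61 genes listed, which include the set, 60 were found and 54 were tested once *N4bp3* was left out. Of these 54, 0 passed by limma, by edgeR or by DESeq2, and 2 reached an unadjusted limma p of 0.05. Without overlap, 3 were higher and 3 were lower, beside 3.94% and 5.72% of all loci, and 4.8% of all loci reached that unadjusted p, so these counts lie near the background. The log2 fold change was positive for 22 of the 54 (40.7%), against 49% of all loci tested, with a median of -0.02.

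Among the HECT ligases 6 of 8 log2 fold changes were positive, with a median of 0.13. *Smurf2*, a ligase that acts on receptors and SMADs of the TGF-beta pathway, had the highest at 0.37, with 6.66, 5.41 and 10.2 FPKM in diabetic and 4.54, 7.26 and 4.75 FPKM in normal libraries. These groups overlapped, and 1 diabetic library was far above the rest.

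The highest value of any list belonged to an adaptor. *Arrdc4*, an arrestin-like protein that carries NEDD4 ligases to membrane proteins, had 8.06, 9.82 and 12.3 FPKM in diabetic and 6.92, 7.12 and 4.48 FPKM in normal libraries. It was higher in 3 of 3 diabetic libraries, with a log2 fold change of 0.66 ± 0.21 (SE), an unadjusted limma p of 0.014 and an adjusted p of 0.953 by limma and 0.326 by DESeq2. Its relative *Arrdc1*, known for recruiting NEDD4 ligases to vesicles budding from the plasma membrane, had 14.2, 17.6 and 14.7 FPKM in diabetic and 13.5, 11.96 and 12.7 FPKM in normal libraries. It was also higher in 3 of 3 diabetic libraries, with a log2 fold change of 0.28 ± 0.11 (SE) and an adjusted p of 0.953 by limma. Neither arrestin-like gene passed.

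Among the substrates 13 of 18 log2 fold changes were negative, with a median of -0.08. *Scnn1g*, the gamma subunit of the epithelial sodium channel, had 0.264, 0.495 and 0.330 FPKM in diabetic and 0.619, 1.23 and 1.09 FPKM in normal libraries. It was lower in 3 of 3 diabetic libraries, with a log2 fold change on log2(FPKM + 1) of -0.50 ± 0.26 (SE) and an adjusted p of 0.953 by limma. That scale understates the change of a gene this low: on counts the log2 fold change was -1.40 by edgeR (unadjusted p 0.0066, adjusted p 0.991) and -1.40 by DESeq2 (unadjusted p 0.00057, adjusted p 0.138), so it did not pass by any of these tests. *Notch1*, a receptor that ITCH acts on, averaged 15.7 ± 1.59 FPKM in diabetic and 17.9 ± 0.953 FPKM in normal libraries (SD, n = 3 each), lower without overlap, with a log2 fold change of -0.16. *Junb*, a transcription factor that is an ITCH substrate, had 114, 66.8 and 47.9 FPKM in diabetic and 97.3, 88.3 and 104 FPKM in normal libraries, and its groups overlapped.

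No upstream enzyme or regulator passed. Among the E1 and E2 enzymes the median log2 fold change was -0.0040 over 7 genes, and *Ube2d2*, an E2 enzyme that serves many E3 ligases, averaged 6.38 ± 0.163 FPKM in diabetic and 6.96 ± 0.281 FPKM in normal libraries (SD, n = 3 each), lower without overlap at a log2 fold change of -0.09. Among the kinases and 14-3-3 proteins 6 of 8 values were negative with a median of -0.03. *Sgk1*, a kinase whose phosphorylation of NEDD4L spares the sodium channel, averaged 15.2 FPKM in diabetic and 17.1 FPKM in normal libraries, with a log2 fold change of -0.15. The 14-3-3 gene *Ywhag* had the highest log2 fold change of this list, 0.34 ± 0.25 (SE), with 31.7, 25.6 and 31.0 FPKM in diabetic and 27.3, 14.98 and 31.2 FPKM in normal libraries, which overlapped.

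**Figure D5:**
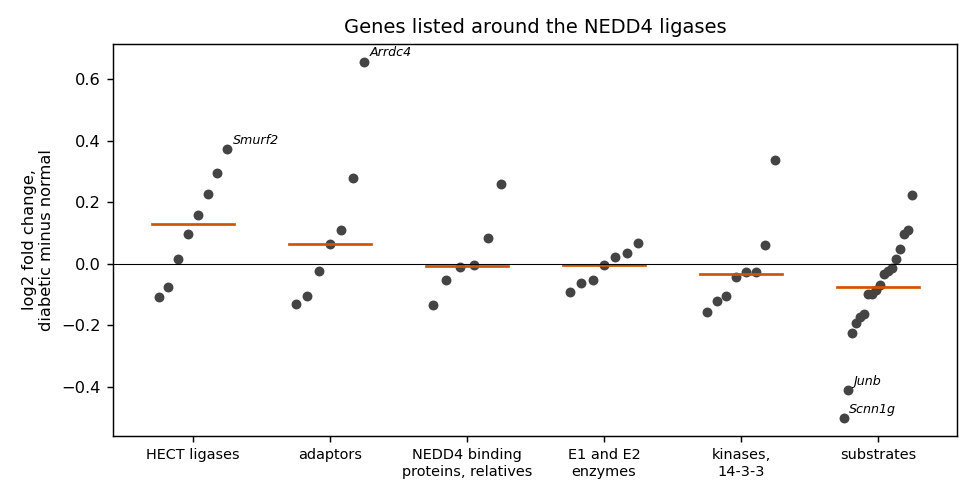
Log2 fold change, diabetic minus normal (vertical axis), of the genes tested in each of 6 lists, with 1 point per gene and a bar at the median of the list. The medians lie between -0.08 and 0.13, and no gene passed the test. On this scale of log2(FPKM + 1), which understates changes of low genes, *Arrdc4* is highest at 0.66 and *Scnn1g* lowest at -0.50.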

How the data were processed

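Per the labels and methods, the authors used cutadapt for trimming, FastQC for read quality, and Bowtie2 with build rn6. The deposited counts per locus and deposited FPKM values were used as given. Neither source names an assembler, a counter, tool versions, a strand setting or a rule for reads that match several loci. The members and lists were chosen with earlier results of these data known. The named genes were the 10 members, loci within 100 kb of *N4bp3*, and some of the listed genes. The listed ones had one of the smallest unadjusted limma p of their list or groups that did not overlap. Not every gene of that kind is named. The paired loci were chosen by description after the values were seen.

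The 42551 loci whose FPKM averaged 0.5 or more were taken as log2(FPKM + 1), quantile normalised and tested by limma 3.58.1 in R 4.3.3, all loci together, two-sided, with Benjamini-Hochberg adjustment. A locus passed at an adjusted p under 0.05 and a fold above 1.2. Counts were tested by edgeR 4.0.16 (quasi-likelihood) and DESeq2 1.42.0 as alternatives, beside other normalisations, pseudocounts, filters, row choices, a replicate block and leaving out each library. Scripts were tested on simulated data. Placeholders for absent values (86380) were read as 0. CPM were computed from each library's total count (62288901 to 87040253). No sequence is printed, since rn6 sequence was not used here.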

Additional observations from a re-analysis of the deposited data

How the results depend on the processing

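For the 9 other genes, the lists and the window around *N4bp3*, the number passing was 0 under every alternative run. Over all loci, 11 passed in the reported limma fit, against 6 with a pseudocount of 0.1, 3 with no filter, 6 by edgeR with TMM, 6 by edgeR with RLE factors, 99 by DESeq2, 3 among protein-coding loci alone and 3 to 10 with 1 library left out. With the replicate number as a block 1 passed. Libraries of the same number did not deviate together (correlations of -0.0092, 0.025 and 0.032), so the numbers were not taken as a pairing. The level of *N4bp3* in diabetic libraries as a share of normal was 0% at its own row and 15.3% over overlapping rows of either strand. The diabetic part of that sum came wholly from the plus-strand row named *Sec24a*, at 2.32, 1.81 and 13.6 CPM, and so mostly from diabetic 3. That row lies at chr10:37099182-37167387, mostly outside the *N4bp3* locus, which ends at 37099678. The 15.3% is therefore not a level of *N4bp3* alone. In choices made after the data were seen, the share was 65.7% summed with *LOC103689949* and 117% for *LOC103689949* alone. The log2 fold change of *Wwp1* became -0.037 without diabetic 2, -0.0011 without diabetic 3, -0.027 without normal 1, -0.016 without normal 2 and -0.034 with all its rows summed, a range of -0.037 to 0.093 over single libraries left out. That of *Ndfip2* became -0.0061 without diabetic 3 and -0.0043 without normal 1, a range of -0.0061 to 0.12. With 1 library left out, that of *Nedd4* ranged from 0.17 to 0.47, of *Itch* from -0.13 to -0.01 and of *N4bp1* from 0.04 to 0.16. That of *N4bp2* ranged from -0.07 to -0.02, of *Ndfip1* from -0.20 to -0.09 and of *Nedd4l* from 0.12 to 0.24. That of *Wwp2* ranged from 0.18 to 0.28, and without diabetic 1 its unadjusted limma p was 0.021 and its adjusted p 0.477. The cause was not tested. With 3 libraries a group, the 95% intervals of the 9 genes reached from -0.38 to 0.72, and changes within a gene's own interval were not excluded.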

Other observations

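Empty loci were counted over all protein-coding rows with at least 500 counts in some library. Of 9173 such rows, 46 (0.501%) had 0 counts in at least 1 library. The count was prompted by the empty loci near *N4bp3*, so rows of those 7 pairs that share a description are given apart. Of these 7 rows, 3 (42.9%) were empty in a library. *N4bp3*, chosen for its difference between the groups, is among these 3, so this share is in part set by the choice. Of 58 other rows that share their description with exactly 1 row on the same chromosome and strand, 3 (5.17%) were empty. Of the 9108 rows without such a partner 40 (0.439%) were. Loci of the 7 pairs whose description is not shared in this way were left among the 9108. The shares of 42.9% and 5.17% each rest on 3 rows and are given as a description.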
